A study of Sus scrofa with 16 samples.

Results

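The genes described were 4 myosin genes of striated muscle, MYH2, MYH7, MYL2 and MYL3, out of 6765 genes that the annotation of the array names with 1 symbol. Members were the probe sets (groups of short probes for 1 transcript) whose single symbol is one of these names. Each gene had 1 such probe set, and all 4 passed the filter on dim probe sets. Their Entrez gene identifiers are 397256 for MYH2, 396860 for MYH7, 396690 for MYL2 and 100515755 for MYL3. They were measured in the psoas major, a loin muscle, and in the diaphragm, the main breathing muscle, of 8 Iberian pigs slaughtered at 211 days of age. The 4 animals on the restricted level received 20% less feed, and the 4 others were on the high level. Each feeding level held 2 females and 2 males, which gave 8 groups by muscle, sex and feeding level, each of 2 animals. Animals 2, 3, 5 and 8 were restricted, and animals 5 to 8 were female. All pigs ate the same pelleted diet before the restriction, per the labels. The sources used here do not give when the restriction began or whether the males were castrated.

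Myosin is the motor of the thick filament. A myosin molecule pairs heavy chains, which bind actin and split ATP, with regulatory and essential light chains wrapped around the neck of each head. Mammalian muscle fibres differ in which heavy chain they make. MYH7 encodes the heavy chain of slow fibres and of the heart ventricle, and MYH2 that of fast oxidative fibres. MYL2 encodes the regulatory light chain and MYL3 the essential light chain of slow fibres and ventricle. Slow fibres resist fatigue and fast fibres contract quickly, and a muscle holds a mixture of them.

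Expression was given as log2 values, where a difference of 1 is a 2-fold change, and 16 arrays were analysed. Array medians lay between 3.55 and 3.61 and array maxima between 15.70 and 15.89, and 11025 to 11163 probe sets per array reached the floor of 4. The arrays held skeletal muscle markers near the upper end, among them CKM, the muscle creatine kinase, with means of 15.15 in psoas and 15.16 in diaphragm. Since MYH7, MYL2 and MYL3 are also genes of the heart ventricle, heart markers were read beside them. The natriuretic peptide genes NPPA and NPPB, the cardiac troponin TNNT2 and the cardiac regulator GATA4 lay below 4 on every array. The atrial light chain MYL4 reached 4.15 at most. The cardiac inhibitory troponin TNNI3 was above the floor, at 5.90 to 8.43 in psoas and 5.83 to 6.39 in diaphragm.

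MYH2 was the member that separated the muscles. Its log2 values were 15.02, 15.37 and 15.43 in psoas (lowest, median and highest of 8 arrays), against 11.79, 12.57 and 13.12 in diaphragm. Every psoas array lay above every diaphragm array. Such a separation was found in 3.72% of the 11467 tested probe sets. The psoas minus diaphragm difference was 2.74 ± 0.14 (log2 ± SE, 6.69-fold, limma adjusted p = 3.8e-09, n = 8 animals), the 19th largest of all tested probe sets by size. Within animals it ran from 1.95 in animal 2 to 3.58 in animal 4 and was positive in 8 of 8 (exact permutation of the signs, two-sided p = 0.0078, the smallest that 8 animals allow). In whole muscle, fewer fibres of a type and less RNA per fibre cannot be told apart. MYH1 and MYH4, further fast heavy chain genes, are not the single symbol of a probe set in the annotation and were not analysed here. MYH1 is the neighbour of MYH2 in assembly Sscrofa11.1, and how far the MYH2 probes also bind its transcripts was not tested, so that MYH2 could here stand for several fast heavy chains.

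Of the 4 members, MYH2 was called higher in psoas and MYL2 higher in diaphragm, where a call means an adjusted p under 0.05. Over all tested probe sets 27.0% were called, 14.6% higher in psoas and 12.4% higher in diaphragm. MYL2 had log2 values of 14.61, 15.02 and 15.12 in psoas (lowest, median, highest), against 15.09, 15.16 and 15.22 in diaphragm. The 2 ranges overlapped through animal 5 in psoas and animal 7 in diaphragm, yet MYL2 was lower in psoas in 8 of 8 animals, by 0.02 to 0.48 (exact permutation of the signs, two-sided p = 0.0078). The difference was -0.23 ± 0.07 (log2 ± SE, adjusted p = 0.037, n = 8 animals), a 1.17-fold higher level in diaphragm. This call was lost in the fits without animal 2 (adjusted p = 0.068), 3 (0.103), 4 (0.0975), 7 (0.0625) or 8 (0.0555).

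MYH7, the slow heavy chain, had a similar pattern that did not pass the test. Its values were 14.77, 15.03 and 15.14 in psoas, against 15.06, 15.13 and 15.18 in diaphragm (log2, lowest, median and highest of 8 arrays each). The difference was -0.16 ± 0.07 (log2 ± SE, adjusted p = 0.097, 95% interval -0.31 to -0.01). MYH7 was lower in psoas in 6 of 8 animals, and in animals 5 and 8 the muscles differed by 0.02 in the other direction (exact permutation of the signs, two-sided p = 0.031).

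MYL3 did not lean the way of its slow fibre partners. Its values were 13.19, 13.89 and 14.32 in psoas, against 13.31, 13.42 and 13.68 in diaphragm (log2, lowest, median and highest of 8 arrays each). Psoas was higher in 6 of 8 animals, by up to 0.91 in animal 5, and lower in animals 4 and 7. The mean difference of 0.36 ± 0.15 (log2 ± SE, 1.29-fold) did not pass (adjusted p = 0.093, 95% interval 0.04 to 0.69, n = 8 animals; exact permutation of the signs, two-sided p = 0.055). Without animal 7 it was 0.435 with a limma adjusted p of 0.030. The muscle ranges overlapped for all members but MYH2.

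**Figure D1:**
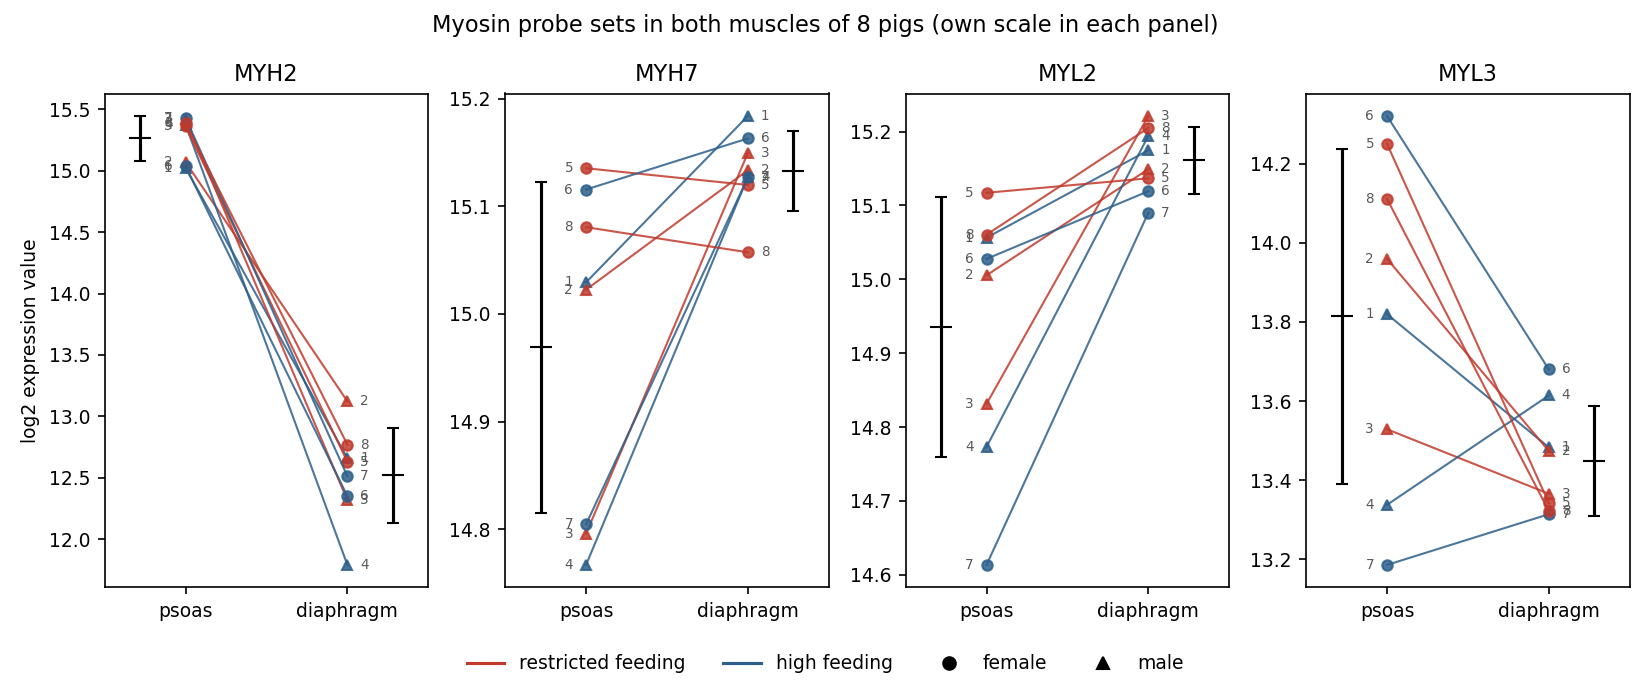
Log2 values of MYH2, MYH7, MYL2 and MYL3 (vertical axes, a scale of its own in each panel) in psoas and diaphragm, with a line for each of 8 numbered animals, colour for feeding level, marker shape for sex, and black bars for mean ± SD of 8 arrays. MYH2 is higher in psoas in every animal, while MYH7, MYL2 and MYL3 spread more widely in psoas than in diaphragm, and animals 3, 4 and 7 are the 3 lowest in psoas for each of them.

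The values of MYH7, MYL2 and psoas MYH2 lay near the top of the scale, where differences can be compressed. Only 23 probe sets reached 15 on any array. MYH2 stood 0.31 to 0.81 below the maximum of the array in psoas and 2.73 to 4.07 below it in diaphragm, and ranked 6th to 16th of all probe sets in psoas and 188th to 431st in diaphragm. MYH7 stood 0.62 to 1.01 below the maximum in psoas and 0.67 to 0.79 in diaphragm. MYL2 stood 0.64 to 1.13 and 0.65 to 0.75 below it. MYL3, with 1.53 to 2.56 in psoas and 2.19 to 2.53 in diaphragm, lay further from the top. The part of compression in the small differences of MYH7 and MYL2 was not tested.

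Among animals, the slow fibre members varied more in psoas than in diaphragm. The SD of log2 values was 0.15 in psoas and 0.04 in diaphragm for MYH7, 0.18 and 0.05 for MYL2, and 0.42 and 0.14 for MYL3 (n = 8 arrays each). MYH2 went the other way, with 0.18 in psoas and 0.39 in diaphragm. Levels differ in their distance from the top, so each SD was also read beside probe sets of similar level. The psoas SD of MYL3 was larger than that of each of 110 tested probe sets within 0.5 of its mean, whose median was 0.11. The psoas SD of MYH2 was likewise larger than in each of 26 such probe sets (median 0.06). For MYL2 it was larger than in 86.8% and for MYH7 than in 78.9% of 38 such probe sets (median 0.08). In diaphragm, MYH7 exceeded 19.2% of 26, MYL2 40% of 25, MYL3 68.3% of 142 and MYH2 92.5% of 174 probe sets of similar level. These shares describe the arrays, and the difference in spread between the muscles was not tested.

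**Figure D2:**
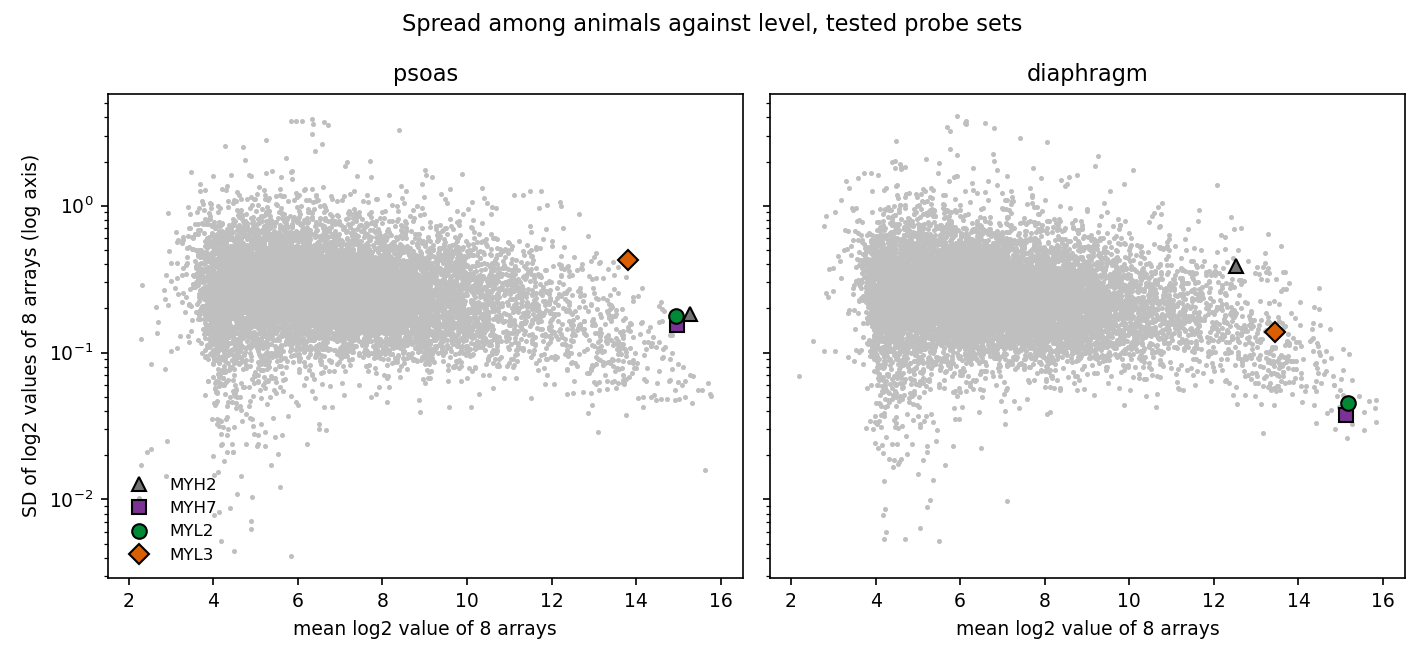
SD of the log2 values of 8 arrays (vertical log axis) against their mean (horizontal axis) for the 11467 tested probe sets in psoas and in diaphragm, grey, with the 4 members in colour. Spread falls toward the top of the scale, and in psoas MYL3 (SD 0.42) and MYH2 (SD 0.18) lie above all tested probe sets within 0.5 of their level.

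In psoas the 3 slow fibre members moved together from animal to animal. Psoas MYH7 was 15.14, 15.12, 15.08, 15.03 and 15.02 in animals 5, 6, 8, 1 and 2, and 14.80, 14.80 and 14.77 in animals 7, 3 and 4. Psoas MYL3 was 14.32, 14.25, 14.11, 13.96 and 13.82 in animals 6, 5, 8, 2 and 1, and 13.53, 13.34 and 13.19 in animals 3, 4 and 7. Animals 3, 4 and 7 were also the 3 lowest for psoas MYL2, at 14.83, 14.77 and 14.61. These 3 animals were a restricted male, a male on the high level and a female on the high level, so that they share neither sex nor feeding level. Among the psoas arrays, that of animal 7 also had the widest gap between the 3' and 5' actin control probes (3.85, log2). Animal 5, the highest for psoas MYH7, had the next widest (3.71).

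Over the 8 psoas arrays, Pearson's r was 0.956 between MYH7 and MYL3 (exact permutation p = 0.00067, adjusted 0.0080), 0.923 between MYL2 and MYL3 (p = 0.0013, adjusted 0.0080) and 0.908 between MYH7 and MYL2 (p = 0.0050, adjusted 0.020). All tests were two-sided, and p was adjusted over 12 relations, 6 gene pairs in 2 muscles. Spearman's rho for these pairs was 0.881, 0.810 and 0.857 (exact permutation p = 0.0072, 0.022 and 0.011, adjusted 0.064, 0.087 and 0.064), so that the ranks alone did not pass. The MYH7 values left a gap between 14.80 and 15.02, and the sets of animals on either side of it were too small for an r of their own. Without the 2 animals farthest from the median of the first gene, r was 0.984, 0.789 and 0.955 in 6 animals and no longer passed (adjusted exact permutation p = 0.067, 0.24 and 0.12). The animals left out were 3 and 4, or 4 and 7 for MYL2 and MYL3, and r fell for that last pair alone. Without animals 3 and 4, animal 7 was the only one left below the gap in MYH7. The r of 0.984 and 0.955 therefore lean on that animal, and r of these pairs without it was not computed.

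In diaphragm no pair of members passed. There, r was 0.502 between MYH7 and MYL3, -0.197 between MYH7 and MYL2 and -0.055 between MYL2 and MYL3, with adjusted exact permutation p from 0.38 to 0.89 and n = 8, and rho was 0.714, 0 and 0.048 (adjusted 0.17, 1 and 1). The members spanned only 0.13 (MYH7 and MYL2) to 0.37 (MYL3) in that muscle. Whether the correlations differ between the muscles was not tested. MYH2 and the slow fibre members gave r of -0.53 (MYH7), -0.52 (MYL2) and -0.49 (MYL3) in psoas (rho -0.476, -0.500 and -0.571), and -0.169, -0.211 and -0.438 in diaphragm (rho -0.190, -0.095 and -0.333). None of these passed (n = 8, adjusted exact permutation p from 0.38 to 0.74 for r and from 0.36 to 1 for rho). After the fitted sex and feeding effects were subtracted, the psoas r of MYH2 was -0.903, -0.786 and -0.869 (permutation p adjusted to 0.015, 0.046 and 0.011), and its rho was -0.857, -0.738 and -0.905 (adjusted 0.026, 0.092 and 0.014), so that the ranks of MYH2 and MYL2 did not pass. In the same setting the psoas r was 0.948 for MYH7 and MYL3, 0.950 for MYL2 and MYL3 and 0.968 for MYH7 and MYL2. Their rho was 0.976, 0.905 and 0.929 (permutation p adjusted to 0.0048, 0.014 and 0.013). The permutations of this setting took the residuals as interchangeable, although sex and feeding had been fitted to the same 8 values. Its p-values are therefore too small, and whether these relations would pass a test that allows for the fit was not tested.

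No relation was found between the level in psoas and that in diaphragm. Across the 8 animals, r between psoas and diaphragm was -0.371 for MYH2, -0.095 for MYH7, 0.165 for MYL2 and 0.161 for MYL3 (rho -0.310, -0.143, 0.095 and 0.262). All 4 had an adjusted exact permutation p of 0.84, for r as for rho, and r without the 2 animals farthest from the median was -0.634, -0.049, -0.584 and 0.331.

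**Figure D3:**
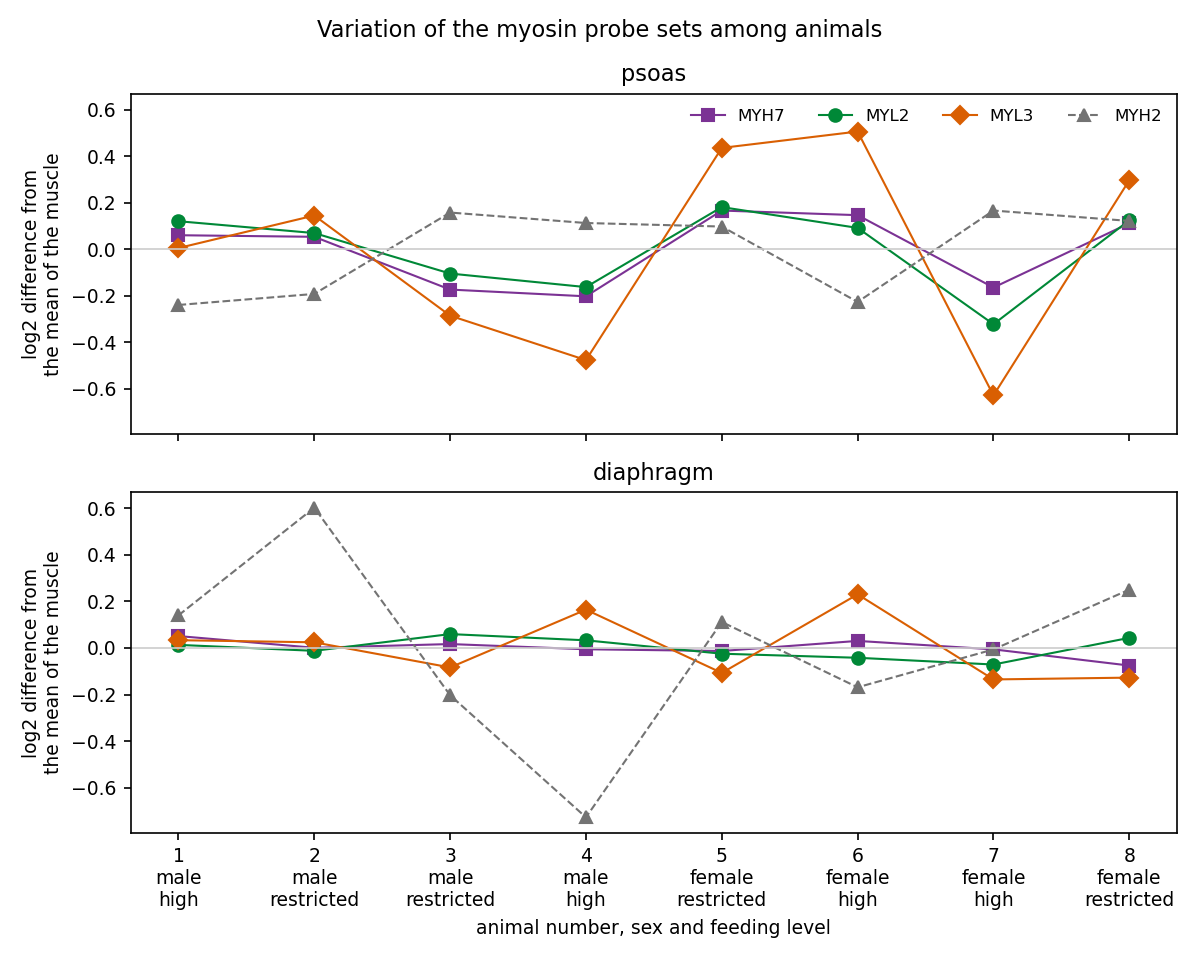
Difference of each log2 value from the mean of its muscle (vertical axis) for MYH7, MYL2, MYL3 and MYH2 in animals 1 to 8 (horizontal axis, with sex and feeding level), psoas above and diaphragm below. In psoas MYH7, MYL2 and MYL3 fall together in animals 3, 4 and 7 and are high together in animals 5, 6 and 8, and in diaphragm MYH7 and MYL2 hardly vary.

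The genes most like each member over the 16 arrays were then ranked by Pearson's r among 4570 other tested genes, as a description. The arrays share animals and muscles, so that muscle differences enter these values. For MYH7 the 5 highest were TNNC1 (0.968) and TNNT1 (0.966), the calcium-binding and tropomyosin-binding troponins of slow fibres, LDHB, the lactate dehydrogenase subunit of heart and slow fibres (0.934), TNNI1, the slow inhibitory troponin (0.926), and MYL2 (0.906). For MYL2 they were ACADL, an enzyme of mitochondrial fatty acid oxidation (0.958), TNNT1 (0.957), TNNC1 (0.953), TNNI1 (0.953) and LDHB (0.943). For MYL3 they were MAPK12, a p38 kinase of skeletal muscle (0.886), CHCHD3, a protein of the inner mitochondrial membrane (0.874), PLN, phospholamban, the regulator of the slow calcium pump (0.872), FOLH1B (0.848) and LYRM1 (0.836). MYL3 itself had r of 0.293 with MYH7 and 0.165 with MYL2 over 16 arrays, and its muscle difference has the opposite sign.

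With the mean of each muscle subtracted, r with MYL3 was 0.920 for MYH7 and 0.846 for MYL2, while r between MYH7 and MYL2 was 0.843, against 0.906 before. MYH7 was then most like TNNC1 (0.949), TNNT1 (0.944), MYL3 (0.920), the LIM-domain protein PDLIM1 (0.900) and LDHB (0.898). MYL3 was most like TNNI1 (0.933), MYH7 (0.920), LDHB (0.909), MAPK12 (0.898) and ATP2A2, the slow calcium pump (0.898). MYL2 was most like TNNT1 (0.924), TNNC1 (0.923), ACADL (0.922), LDHB (0.920) and TNNI1 (0.915), with MYL3 in 11th place (0.846) and MYH7 in 12th (0.843). Over the 8 psoas arrays alone, MYH7 had r of 0.992 with TNNC1 and 0.963 with TNNT1, against 0.382 and 0.654 over the 8 diaphragm arrays.

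MYH2 had other neighbours. Over 16 arrays they were HOXA9, a homeobox transcription factor (0.947), RPLP1, a ribosomal stalk protein (0.940), the chaperone subunit PFDN4 (0.937), SH3BGR (0.929) and RGP1 (0.927), each higher in psoas by 0.46 to 4.03. With the mean of each muscle subtracted, RAD21, a cohesin subunit (0.809), IRF2, an interferon regulatory factor (0.798), RFWD2, a ubiquitin ligase (0.789), the chemokine CXCL12 (0.776) and SERPINF1 (0.773) led, and no gene of contraction was among them. MYH2 then had r of -0.257 with MYH7, -0.264 with MYL2 and -0.323 with MYL3.

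The feeding levels were compared in each muscle and over animal means. MYH2 in psoas was 15.07, 15.42, 15.36 and 15.38 in restricted animals 2, 3, 5 and 8, against 15.02, 15.38, 15.04 and 15.43 in animals 1, 4, 6 and 7 on the high level. In diaphragm it was 13.12, 12.32, 12.63 and 12.77 in the same restricted animals, against 12.66, 11.79, 12.35 and 12.51 on the high level. The groups overlapped in both muscles. The restricted minus high difference of MYH2 was 0.09 ± 0.14 in psoas (log2 ± SE, limma adjusted p = 0.83), 0.38 ± 0.24 in diaphragm (adjusted p = 0.61) and 0.24 ± 0.11 over animal means (adjusted p = 0.41, 95% interval -0.01 to 0.49).

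MYL3 in psoas was 13.96, 13.53, 14.25 and 14.11 in restricted animals 2, 3, 5 and 8, against 13.82, 13.34, 14.32 and 13.19 in animals 1, 4, 6 and 7 on the high level. In diaphragm it was 13.47, 13.37, 13.34 and 13.32, against 13.48, 13.61, 13.68 and 13.31. Again the groups overlapped. The restricted minus high difference of MYL3 was 0.30 ± 0.25 in psoas, -0.15 ± 0.11 in diaphragm and 0.07 ± 0.16 over animal means (log2 ± SE, adjusted p = 0.69, 0.68 and 0.88). MYH7 and MYL2 differed between feeding levels by -0.04 to 0.14 over these 3 comparisons, with adjusted p from 0.73 to 0.94.

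Over animal means 0 of 11467 probe sets (0%) were called between feeding levels by limma, with 1451 at an unadjusted p under 0.05. None was called within psoas (1291 unadjusted) or diaphragm (1101). The 95% intervals over animal means were -0.18 to 0.22 for MYH7, -0.12 to 0.29 for MYL2 and -0.30 to 0.45 for MYL3, so that differences within those intervals between restricted and high feeding remain compatible with these data.

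By muscle and feeding level, MYH2 was 15.31 ± 0.16 in restricted psoas, 15.22 ± 0.22 in psoas on the high level, 12.71 ± 0.33 in restricted diaphragm and 12.33 ± 0.38 in diaphragm on the high level (log2 mean ± SD, n = 4 each). The feeding levels overlapped within each muscle, and every psoas value lay above every diaphragm value. MYL3 ran from 13.96 ± 0.31 in restricted psoas over 13.67 ± 0.51 in psoas on the high level and 13.52 ± 0.16 in diaphragm on the high level to 13.38 ± 0.07 in restricted diaphragm. All neighbours in that order overlapped. For MYH7 the order was diaphragm on the high level (15.15 ± 0.03), restricted diaphragm (15.12 ± 0.04), restricted psoas (15.01 ± 0.15) and psoas on the high level (14.93 ± 0.17). For MYL2 it was restricted diaphragm (15.18 ± 0.04), diaphragm on the high level (15.14 ± 0.05), restricted psoas (15.00 ± 0.12) and psoas on the high level (14.87 ± 0.21). In both orders each group overlapped with its neighbours. Within a feeding level, however, the muscles did not overlap for MYL2, with psoas at most 15.117 and diaphragm at least 15.137 under restriction, and 15.056 and 15.090 on the high level. The same held for MYH7 on the high level (15.116 and 15.127) and, with psoas higher, for MYL3 under restriction (psoas at least 13.53, diaphragm at most 13.47). How often probe sets separate in this way within a feeding level was not counted, so that these separations are a description only. By limma MYL2 was called at neither level (adjusted p = 0.24 under restriction and 0.27 on the high level). MYH7 was not called on the high level (adjusted p = 0.33).

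The muscle difference was also read at each feeding level, where 12.1% of probe sets were called under restriction and 1.67% on the high level (191 probe sets, 598 with the animal as a block). MYH2 was higher in psoas at both, by 2.60 ± 0.18 in restricted animals (adjusted p = 4.6e-04) and 2.89 ± 0.21 on the high level (adjusted p = 8.1e-04, log2 ± SE, n = 4 animals each). MYL3 passed in restricted animals, with 0.59 ± 0.15 and 4 of 4 animals higher in psoas (adjusted p = 0.040), and was 0.14 ± 0.25 on the high level, with 2 of 4 higher (adjusted p = 0.78). Leaving out any of the 4 restricted animals ended this call (adjusted p from 0.057 to 0.144), as did testing without the filter (0.112). The test of the difference between the feeding levels themselves, on each animal's psoas minus diaphragm value, gave 0.44 ± 0.22 for MYL3 and did not pass (limma adjusted p = 0.81, unadjusted 0.074, 95% interval -0.05 to 0.94). By limma 0 probe sets were called in that test, with 696 at an unadjusted p under 0.05. MYH7 and MYL2 were not called at either level, at -0.11 and -0.17 in restricted animals and -0.22 and -0.28 on the high level. Their interaction terms, and that of MYH2, lay between -0.29 and 0.11 (adjusted p 0.91 to 0.93).

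**Figure D4:**
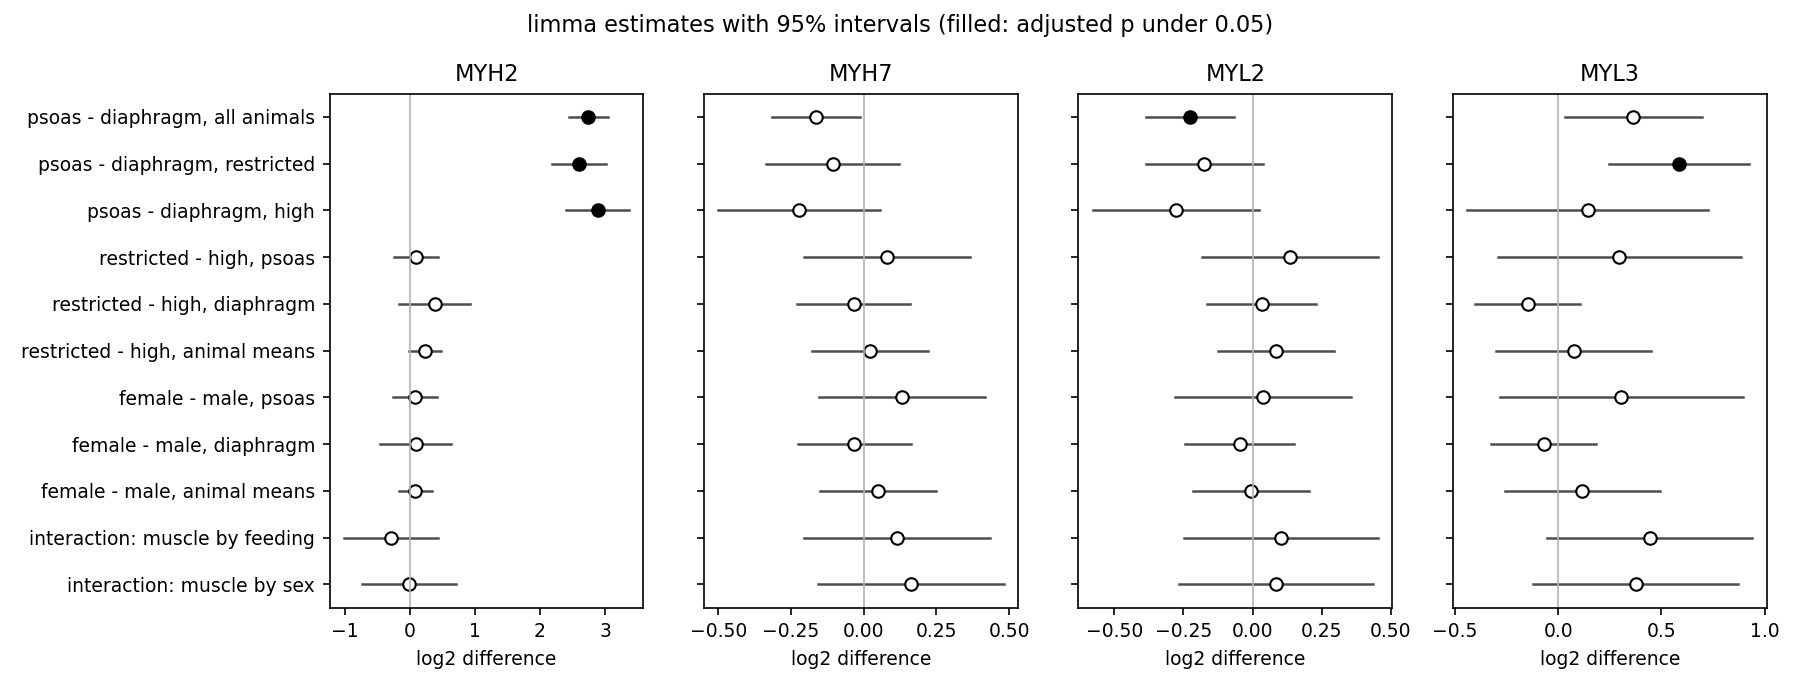
Log2 differences with 95% intervals (horizontal axes, a scale of its own in each panel) for the 4 members in each comparison named on the left, filled where the limma adjusted p is under 0.05. The filled points are the 3 muscle differences of MYH2, that of MYL2 over all animals (-0.23) and that of MYL3 in restricted animals (0.59), and all feeding, sex and interaction intervals include 0.

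No member was called between females and males. The female minus male difference over animal means was 0.09 ± 0.11 for MYH2, 0.05 ± 0.09 for MYH7, -0.0045 ± 0.091 for MYL2 and 0.12 ± 0.16 for MYL3 (log2 ± SE, n = 4 animals each, limma adjusted p of 0.87 or more). Of all probe sets 0.183% were called there, 0.0959% within psoas and 0.122% within diaphragm. The widest gap within a muscle was that of MYL3 in psoas, with 13.97 ± 0.53 in females and 13.66 ± 0.28 in males (log2 mean ± SD, n = 4 each, adjusted p = 0.68). The muscle difference did not pass as dependent on sex for any member, with terms from -0.01 to 0.38 (adjusted p 0.60 to 0.99). By limma 0 probe sets were called there, with 1161 at an unadjusted p under 0.05.

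The other genes of fibre type and thick filament were counted on 1 probe set per gene. On that basis 17.3% of all 4571 genes were called higher in psoas and 12.2% higher in diaphragm, and their median difference was 0.04. Of 5 other myosin genes tested, none was called higher in psoas and 2 were called higher in diaphragm, with a list median of 0.06. These 2 belong to myosin of cells and tissues beyond the sarcomere, namely the light chain MYL6 (-0.53 ± 0.13 SE, adjusted p = 0.0082) and the non-muscle heavy chain MYH9 (-0.45 ± 0.16, adjusted p = 0.049). This list had 2 calls without animal 1 and 1 call without any other animal. The light chains of fast fibres, MYL1 and MYLPF, differed by 0.09 ± 0.05 and 0.06 ± 0.06 (log2 ± SE, adjusted p = 0.24 and 0.49), with psoas means of 14.91 and 15.10.

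Of 9 slow fibre genes other than the members, 5 were lower in psoas and none higher, with a list median of -0.26. They were TPM3, a slow tropomyosin (-0.64), CASQ2, the calsequestrin of slow fibres and heart (-1.48, with a psoas mean of 4.17, close to the floor), ATP2A2 (-0.28), TNNI1 (-0.33) and TNNT1 (-0.26). The differences of MYH7 and MYL2 were -0.16 and -0.23, beside -0.22 for TNNC1, which was not called. Of the uncalled genes 3 had a positive difference, like MYL3, namely PLN (0.47 ± 0.21 SE, adjusted p = 0.11), the carbonic anhydrase CA3 (0.22 ± 0.13, 0.22) and the calcium pump regulator SLN (0.12 ± 0.06, 0.14). Without animal 3 or animal 4, 3 of the 9 were called. Of 6 fast fibre genes, 5 were higher in psoas and none lower (list median 0.32), namely ATP2A1, the fast calcium pump (0.98), TPM1 (0.34), the fast troponins TNNT3 (0.33) and TNNI2 (0.32), and MYOZ1, a Z-disc protein (0.17). Among these genes MYH2 had the largest difference. The troponins, TPM1, MYOZ1 and ATP2A2, however, had means above 14 in both muscles. Of the tested probe sets with a mean from 14 to 16, 0 differed 2-fold or more. MYH2 averaged 12.52 in diaphragm, so that these differences come from unlike parts of the scale. With animals 4, 6, 7 and 8 alone 1 slow and 1 fast fibre gene were called, and the list medians were -0.26 and 0.28.

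Of 9 thick filament and M-band genes, TRIM55, a ubiquitin ligase of the sarcomere, was higher in psoas (0.58 ± 0.18 SE) and PPP1R12A, the targeting subunit of myosin phosphatase, was lower (-0.51 ± 0.09), with a list median of -0.09. TRIM55 was not called without animal 5 or without animal 8. The giant protein titin (TTN) differed by 0.005 ± 0.051, the myosin-binding protein MYBPC1 by -0.12 ± 0.07 and the myosin chaperone UNC45B by 0.19 ± 0.12 (log2 ± SE), none of them called. Of 10 regulators of fibre type tested, 3 were higher in psoas and none lower (list median 0.25). They were PPP3CA (0.61 ± 0.13 SE, adjusted p = 0.0031) and PPP3CB (0.28 ± 0.07, adjusted p = 0.0066), catalytic subunits of the phosphatase calcineurin, and TEAD1, a factor that binds muscle gene promoters (0.52 ± 0.16, adjusted p = 0.025).

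**Figure D5:**
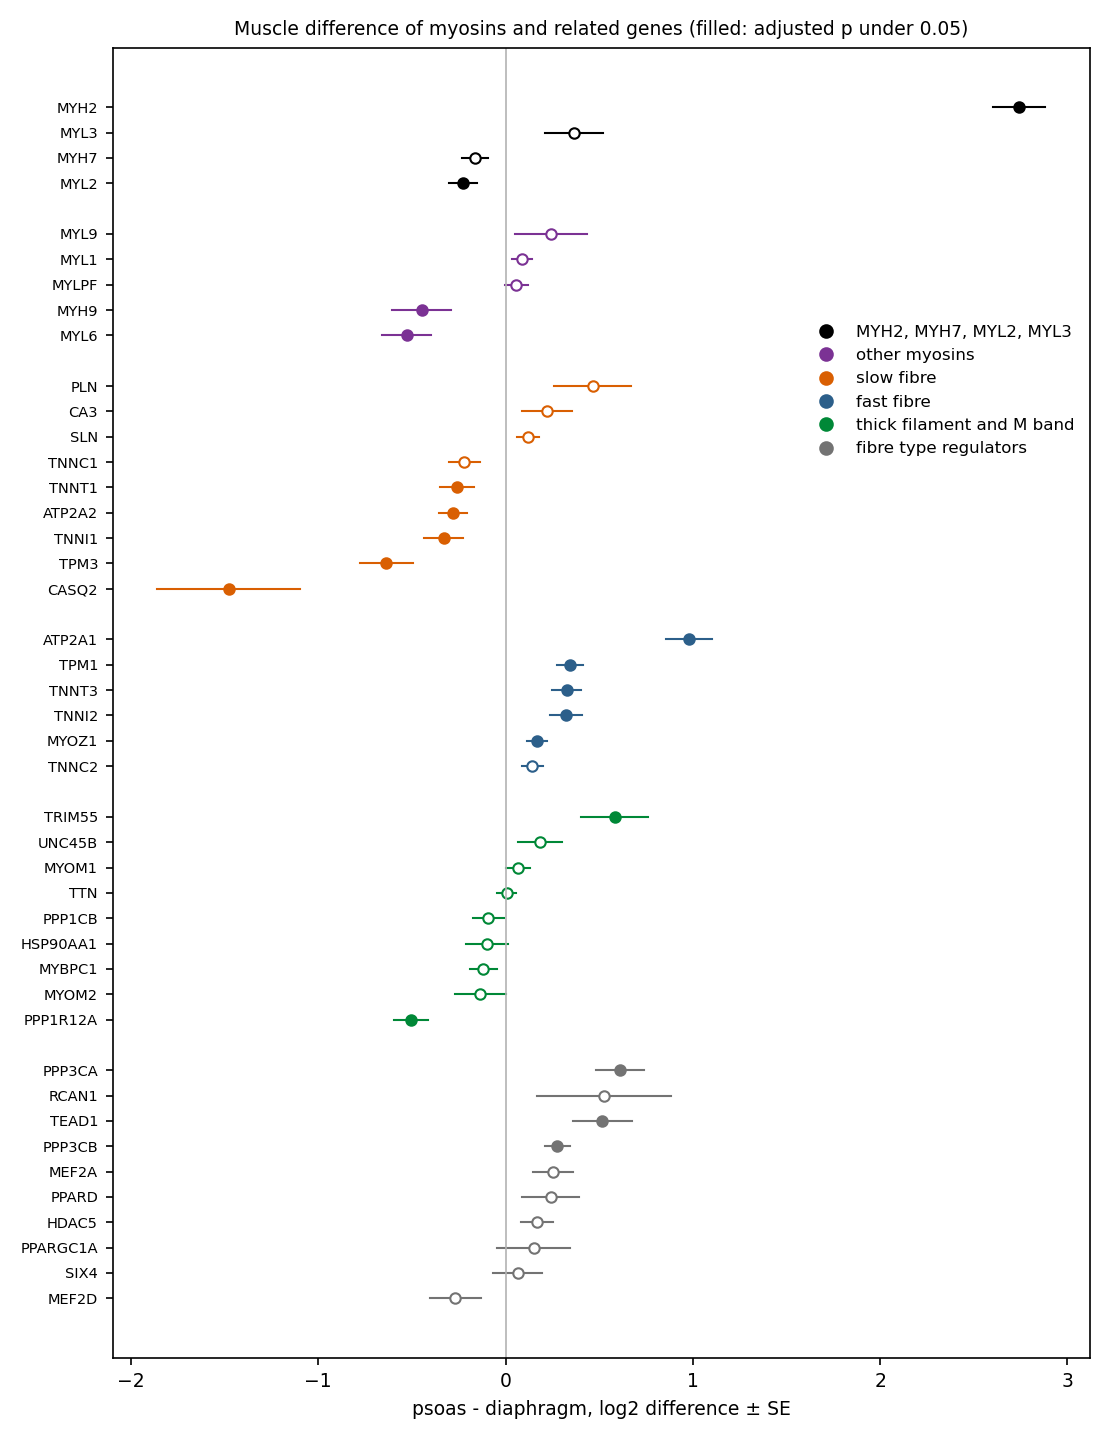
Psoas minus diaphragm log2 difference ± SE (horizontal axis) for the 4 members and for the tested genes of 5 related lists, from limma on 16 arrays, filled where the adjusted p is under 0.05. MYH2 at 2.74 lies far to the right of all other genes shown, and MYH7 (-0.16) and MYL2 (-0.23) lie close to the slow troponins. Many of the genes shown lie near the top of the scale, where differences can be compressed.

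Markers of other cells also differed between the muscles. All 7 tested hepatocyte markers, 5 of 5 endothelial markers, 2 of 3 adipocyte markers, 2 of 2 fibroblast markers and 1 of 1 immune marker were called higher in diaphragm. Over all 4571 genes 12.2% were. In psoas ALB (3.97 at most), APOC3 (3.16), FGB (3.49), HP (2.57) and TF (2.30) stayed below 4. These hepatocyte markers passed the filter through diaphragm alone, so that their direction was fixed in advance. The hepatocyte marker TTR, below 4 in both muscles, was not tested. The endothelial list averaged 6.51 to 7.02 over the psoas arrays and 7.06 to 7.50 over the diaphragm arrays, and the hepatocyte list 3.03 to 3.60 and 3.48 to 7.33. Actin control probes read higher at the 3' than at the 5' end, by 3.07 to 3.85 in psoas and 3.35 to 4.33 in diaphragm (log2). Such a gap can come from RNA breakdown, and its cause here was not tested. The other controls did not follow the actin gap. Their mean gap was 1.03 in psoas and 0.94 in diaphragm for EF1A, and -0.10 in psoas and -0.05 in diaphragm for GAPDH. With the actin gap as a covariate the muscle difference was 2.87 ± 0.15 for MYH2 (adjusted p = 1.8e-08), -0.26 ± 0.08 for MYL2 (0.040), -0.17 ± 0.08 for MYH7 (0.16) and 0.29 ± 0.18 for MYL3 (0.26). Of 5 smooth muscle markers tested, CNN1 passed as higher in psoas and RGS5 as lower. Of 5 skeletal muscle markers TNNT3 alone was called, and no erythrocyte marker of 2. The mesothelial marker KRT19 stayed below 4 on every array. The part of these markers in the muscle differences of the members was not tested.

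Within psoas, the marker lists and the actin and GAPDH controls were set against the members over 8 arrays. Of 96 relations in both muscles none passed, the lowest adjusted exact permutation p being 0.61. The endothelial list had r of 0.748 with MYL3 and the immune list 0.788 with MYL2 (rho 0.667 each, r without the farthest 2 arrays 0.536 and 0.576). The heart marker list had r of 0.793 with MYH7, 0.715 with MYL2 and 0.725 with MYL3 in psoas (rho 0.833, 0.762 and 0.762, unadjusted exact permutation p = 0.021, 0.045 and 0.041, n = 8). Without the 2 arrays farthest from the median of that list r was 0.858, 0.696 and 0.737. Of its 6 genes on the array only TNNI3 was tested, at 6.81 in psoas (0.84 ± 0.28 higher than in diaphragm, log2 ± SE, adjusted p = 0.038). That call was lost without animal 1, 2, 5, 6, 7 or 8, with the actin covariate and with animals 4, 6, 7 and 8 alone. The actin gap between the ends had r of -0.319, -0.530 and -0.404 with MYH7, MYL2 and MYL3 in psoas (rho -0.071, -0.405 and -0.238, without the farthest 2 arrays r of -0.538, -0.666 and -0.484, adjusted exact permutation p from 0.93 to 0.99, n = 8).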

How the data were processed

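Total RNA of each muscle was labelled as biotinylated cRNA and measured on Affymetrix porcine arrays, per the labels' protocols. The authors deposited log2 expression values of 24123 probe sets on 16 arrays, made with GCRMA, per the submitters' processing notes. The sources used here give neither its version nor whether the arrays were normalised jointly. GCRMA equalises the distributions of jointly normalised arrays, so that changes shared by most genes are removed. The values were not scaled again.

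Symbols came from the platform annotation. It gave 10099 probe sets 1 symbol, 198 several and 13826 none, and none changed on updating through gene identifiers of assembly Sscrofa11.1. The 124 control probe sets were not tested. Probe sets at or above 4 in at least 4 of 16 arrays were tested, which left 11467. Where a gene had several, the one of highest mean stood for it.

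Linear models were fitted with limma 3.58.1 (lmFit, eBayes) under R 4.3.3, and p was adjusted by Benjamini-Hochberg over all tested probe sets. Sex and feeding level were covariates of the muscle comparison on 16 arrays, and feeding levels and sexes were compared on animal means or within a muscle with the other factor as covariate. Interactions were tested on within-animal differences. Animals are replicates, since the labels tie the 2 arrays of an animal by its number. The main muscle fits held no term for the animal, which entered as a block among the alternatives. After removal of the fitted effects those arrays correlated at 0.072 to 0.257 over probe sets. On simulated data with 200 changed probe sets, the muscle comparison recovered 54% of log2 changes of 0.5 and 94% of changes of 1, while the feeding comparison recovered 1% and 86%.

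The members and lists, like the tests and the naming rule, were chosen with earlier results of these data known. All members are described. The rule further named the 5 genes most like each member on each scale, and the called genes of smallest p of each list, at most 6. Genes of the lists named beyond these (MYL1, MYLPF, PLN, CA3, SLN, TNNC1, TTN, MYBPC1, UNC45B and markers) were chosen after their values were seen. Alternatives were no filter, a variance trend, arrays centred on their median, no covariate, an animal block, leaving out each animal, and, chosen after seeing the data, animals 4, 6, 7 and 8 alone, which had the smallest actin gaps in diaphragm (3.35 to 3.49), and the actin control as covariate. The set of animals 4, 6, 7 and 8 was chosen by diaphragm alone, and it holds animal 7, with the largest actin gap in psoas (3.85). Animal 4 was the only male in that set and animal 8 the only restricted animal. The number of arrays limits the precision.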

Additional observations from a re-analysis of the deposited data

Results flagged for a closer look

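Values that stand apart from the rest of their group were looked for in 44 groups of 4 or 8 values of the members, where chance alone would mark about 5% of groups, and 2 groups were marked. Among the 4 female psoas arrays MYH7 was 14.80 in animal 7, against 15.08 to 15.14 in the other 3. Among the 4 female diaphragm arrays MYL3 was 13.68 in animal 6, against 13.31 to 13.34 in the other 3. Psoas MYL3 and MYL2 were likewise lowest in animal 7, and psoas MYL3 was highest in animal 6.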

How the results depend on the processing

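Under the alternatives run, MYH2 was called higher in psoas at both feeding levels and over all animals, and the animal as a replicate block changed no call of a member (MYH2 2.743 with limma adjusted p = 2.11e-06, MYH7 -0.164 with 0.0999, MYL2 -0.226 with 0.038, MYL3 0.365 with 0.0578). Of the recomputed values 511 kept direction and side of the threshold, 18 changed sign, 14 lost a call and 5 gained one. The cause of the other changes was not tested, apart from the fewer animals or the more probe sets that an alternative holds by construction. The muscle difference of MYH7 was called with a variance trend (-0.164, limma adjusted p = 0.0397). That of MYL2 was not called with animals 4, 6, 7 and 8 alone (-0.284, adjusted p = 0.237), where 405 probe sets were called in all, against 3094. That of MYL3 under restriction was not called without the filter (0.587, adjusted p = 0.112). With the replicate block, 1911 probe sets were called under restriction, 598 on the high level and 39 between sexes, against 1386, 191 and 21.

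Leaving out an animal moved the muscle difference of MYL2 between -0.255 and -0.190, of MYL3 between 0.287 and 0.457, of MYL3 under restriction between 0.479 and 0.728 and of MYL3 on the high level between -0.023 and 0.283. The same fits gave restricted minus high differences from -0.017 to 0.059 for MYH7 and from -0.087 to 0.214 for MYL3. Female minus male differences ran from -0.021 to 0.279 for MYL3 and from -0.032 to 0.056 for MYL2, from -0.102 to 0.278 for MYH2 in diaphragm and from -0.023 to 0.147 for MYL2 in psoas. The dependence of the MYH2 muscle difference on sex ran from -0.277 to 0.262. No value that changed sign was called. Among psoas correlations, those of MYH2 came under the threshold after sex and feeding effects were subtracted (-0.903, -0.786 and -0.869), by permutation p-values that are too small in that setting. Those among the slow fibre members did not pass without 2 animals (0.955, 0.984 and 0.789). In diaphragm, r turned positive for MYH2 and MYH7 (0.250) and for MYL2 and MYL3 (0.033) after that subtraction, and for MYH2 and MYL2 (0.129) and MYH7 and MYL2 (0.127) without 2 animals. MYH7 and MYL2 lie near the upper end of the scale, and what this costs in detection was not tested.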
